A study of Mus musculus with 21 samples.

Results

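B cells present antigen, make antibody and help to organise lymphocyte aggregates in tumours, and the series asked what they contribute when liver tumours meet checkpoint antibodies. The comparison described here was the difference of responses: the effect of the antibodies in B-cell-depleted tumours minus their effect in WT tumours, fitted for every gene. It drew on all 21 of the 21 libraries and on 19061 genes that passed a filter on low counts, of 55487 gene identifiers in the table. The tumours were Hepa1-6, a mouse hepatoma line of liver origin, grown in C57BL/6 mice. The background was WT or B-cell depletion, and the treatment was isotype antibody or anti-PD1 plus anti-CTLA4, called the combination below. WT tumours gave 5 libraries under isotype and 5 under the combination, and B-depleted tumours gave 6 and 5. Messenger RNA was sequenced from frozen whole tumour. The labels give neither the way B cells were depleted nor the age or sex of the mice, and they do not say that each library is a separate animal, so p-values measure the spread between these libraries. All tumours came from 1 cell line.

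A negative difference of responses means that the antibodies raised a gene less, or lowered it more, in B-depleted than in WT tumours, and a positive one the reverse. Differences are log2 fold changes with a standard error, from 1 edgeR quasi-likelihood fit of the 4 groups. That standard error was derived as the absolute log2 fold change divided by the square root of the F statistic. It is therefore approximate, above all for genes of few counts, and so are the intervals built from it. The threshold for a call was an adjusted p of 0.05 by the Benjamini-Hochberg method, taken over every gene in the fit. Levels are CPM, counts scaled to the same library total, and are compared between libraries, not between genes, since they are not per length.

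PD-1 and CTLA-4 are inhibitory receptors of T cells, and antibodies that block them release T cells from restraint. Responding tumours gain killer lymphocytes, interferon-gamma and the genes that interferon-gamma induces, among them antigen presentation genes. B cells sit beside T cells in lymphoid aggregates, where they can present antigen to CD4 T cells and mature into antibody-secreting plasma cells.

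The labels were checked against 4 genes that define B cells, namely Ms4a1, Cd79a, Cr2 and Fcer2a. Their summed level was 0.662 to 2.15 CPM in WT isotype, 2.26 to 12.5 CPM in WT combination and 0.0626 to 0.641 CPM in B-depleted isotype libraries. In 4 of the 5 B-depleted combination libraries it was 0 to 0.462 CPM, and in the other, replicate 5, it was 4.36 CPM, above every WT isotype library. Another gene of the B-cell list, Cd22, a B-cell lectin, went less clearly with the labels. It was 4.88 to 14.1 CPM in WT isotype, 25.7 to 50.7 in WT combination, 5.07 to 12.7 in B-depleted isotype and 12.1 to 21.8 CPM in B-depleted combination libraries. The isotype arms overlapped in this gene, and the B-depleted combination libraries lay below those of WT. Results that rest on B-depleted combination replicate 5, meant below wherever replicate 5 is named without its arm, are given with it and without it. Of the liver genes, Apob, the protein of secreted lipoproteins, was at 29.5 CPM or more in every library, but such transcripts varied widely. The summed level of the hepatocyte genes was 1023 to 2883 CPM in WT isotype and 124 to 1009 in WT combination libraries. It was 1287 to 2355 CPM in B-depleted isotype and 556 to 1816 in B-depleted combination libraries. Apoa1, another of them, was as low as 0.063 CPM in WT combination. Totals were 9.52 to 14.0 M counts in B-depleted combination libraries and 10.9 to 19.17 M in the others.

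Of the 19061 genes, 5 were called (0.0262%), 2 of them lower (0.0105%) and 3 higher (0.0157%). The 2 with a smaller rise in B-depleted tumours were Hopx, a transcriptional cofactor of effector lymphocytes, and Atp6v0d2, a proton pump subunit of macrophages and osteoclasts. The 3 that the antibodies lowered in WT but not detectably in B-depleted tumours were Srrm4, a splicing activator known from neurons, Oxct2b, a ketone body enzyme known from testis, and the pseudogene Gm49146. At an unadjusted p under 0.05 there were 4881 genes (25.6%), of which 2063 were lower (10.8%) and 2818 higher (14.8%). The adjusted p of many genes lay just past the threshold: 22 genes were under 0.07, 215 under 0.075 and 1033 under 0.10.

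RefSeq windows of 250 bases before the annotated start (build GRCm38.p6) were found for 3 of the 5 called genes, Hopx with 2 starts, Oxct2b and Srrm4. They are shown because these genes gave the strongest differences, so that the promoters of a gene that rose with the antibodies in WT can be read beside those of genes that fell. Capitals mark matches on either strand to CCAAT (found in both Hopx windows, written ATTGG where it lies on the opposite strand), CACGTG (in the second Hopx window) and TGACG (in Oxct2b and, as CGTCA, in Srrm4).
Hopx, first start, chr5:77115124-77115373, minus strand: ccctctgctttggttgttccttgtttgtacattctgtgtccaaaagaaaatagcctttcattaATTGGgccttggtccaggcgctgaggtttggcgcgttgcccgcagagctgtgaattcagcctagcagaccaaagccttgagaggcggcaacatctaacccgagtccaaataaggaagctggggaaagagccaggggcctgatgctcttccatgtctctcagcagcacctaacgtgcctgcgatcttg
Hopx, second start, chr5:77095268-77095517, minus strand: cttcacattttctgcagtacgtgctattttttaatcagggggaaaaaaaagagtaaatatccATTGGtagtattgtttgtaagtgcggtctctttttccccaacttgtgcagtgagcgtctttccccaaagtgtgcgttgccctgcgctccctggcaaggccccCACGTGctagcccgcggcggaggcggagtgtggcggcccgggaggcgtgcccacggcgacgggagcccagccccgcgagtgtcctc
Oxct2b, chr4:123115998-123116247, plus strand: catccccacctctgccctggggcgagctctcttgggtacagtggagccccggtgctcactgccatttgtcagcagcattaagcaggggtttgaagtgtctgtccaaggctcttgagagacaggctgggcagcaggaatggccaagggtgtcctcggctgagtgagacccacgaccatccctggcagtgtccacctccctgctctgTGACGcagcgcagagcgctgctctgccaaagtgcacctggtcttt
Srrm4, chr5:116591818-116592067, minus strand: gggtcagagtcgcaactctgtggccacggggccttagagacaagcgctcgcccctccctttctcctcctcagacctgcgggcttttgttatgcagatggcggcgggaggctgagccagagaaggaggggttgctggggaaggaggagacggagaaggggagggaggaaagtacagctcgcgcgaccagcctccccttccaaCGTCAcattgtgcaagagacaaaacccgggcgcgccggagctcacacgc

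Such matches are common in windows of this length: 33.8% of 32851 RefSeq promoters held CCAAT, 6.02% CACGTG and 17.8% TGACG. The 4 windows held no match to 4 other motifs searched on both strands, which were TGANTCA (AP-1, in 6.75% of promoters), TTCNNNGAA (GAS, a site of interferon-gamma signalling, 7.02%), the ISRE, the site of type I interferon factors (2.98%) and TGTGGT (RUNX, 14%).

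Hopx (chr5:77086988-77115121 on GRCm38, minus strand) encodes a small homeodomain protein that does not bind DNA itself and is known from effector and memory T cells. Its level in WT isotype libraries 1 to 5 was 4.75, 3.59, 3.59, 4.18 and 3.75 CPM, and in WT combination libraries 8.15, 11.7, 9.56, 12.99 and 10.1 CPM. In B-depleted isotype libraries it was 4.70 CPM at the lowest, 5.48 at the median and 6.93 at the highest, and in B-depleted combination libraries 6.62, 6.78, 4.76, 5.52 and 5.64 CPM. The WT combination libraries lay above all the others, and the 2 B-depleted arms overlapped. The response was 1.42 ± 0.15 in WT tumours (adjusted p = 1.22e-05) and 0.06 ± 0.14 in B-depleted tumours (adjusted p = 0.878). The difference of responses was -1.36 ± 0.20 (adjusted p = 0.0242), and -1.36 ± 0.21 without B-depleted combination replicate 5 (adjusted p = 0.0246). It was called in 14 of the 21 refits that each left out 1 library, the most of the 5 genes. Gm49146 was called in 10 of these refits, and Atp6v0d2, Srrm4 and Oxct2b in 7 each.

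Atp6v0d2 (chr4:19876841-19922605, minus strand) encodes the d2 subunit in the membrane part of the vacuolar proton pump, a form known from macrophages and osteoclasts, where it also takes part in cell fusion. WT isotype libraries 1 to 5 held 27.6, 20.3, 21.5, 17.6 and 22.0 CPM and WT combination libraries 82.0, 72.1, 81.2, 131 and 111 CPM. B-depleted isotype libraries ran from 16.6 through a median of 22.7 to 24.6 CPM, and the B-depleted combination libraries held 42.3, 35.3, 44.5, 38.9 and 36.1 CPM. The combination arm lay above the isotype arm in both backgrounds, and the 2 combination arms did not overlap. The response was 2.15 ± 0.16 in WT (adjusted p = 3.53e-07) and 0.90 ± 0.15 in B-depleted tumours (adjusted p = 0.0137), so the gene rose in both. The difference of -1.25 ± 0.22 (adjusted p = 0.0484) was -1.23 ± 0.23 without B-depleted combination replicate 5 (adjusted p = 0.0246).

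Srrm4 (chr5:116439275-116591817, minus strand) encodes a splicing activator of short neuronal exons. It stood at 10.4, 11.6, 11.3, 11.5 and 13.5 CPM in WT isotype libraries and at 7.14, 4.88, 6.35, 3.14 and 3.52 CPM in WT combination libraries. The B-depleted isotype libraries lay at 7.30, 7.88 and 10.9 CPM (lowest, median, highest) and the B-depleted combination libraries at 11.03, 11.4, 8.56, 9.42 and 8.93 CPM. All 5 WT combination libraries lay below every other library. The response was -1.20 ± 0.18 in WT (adjusted p = 9.19e-05) and 0.27 ± 0.17 in B-depleted tumours (adjusted p = 0.477), and the difference was 1.46 ± 0.24 (adjusted p = 0.0345). An antisense gene, Srrm4os, covers part of the locus; its arm means were 0.148 to 0.410 CPM.

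Oxct2b (chr4:123116266-123118000, plus strand) is an intronless copy of the gene for the enzyme that activates acetoacetate when tissues use ketone bodies. WT isotype libraries held 1.82, 1.73, 2.29, 2.29 and 2.10 CPM, and WT combination libraries 0.394, 0.381, 0.566, 0.237 and 0.391 CPM, from 4 to 9 counts each. The B-depleted isotype libraries ran from 1.25 through 1.69 to 3.18 CPM, and the B-depleted combination libraries held 2.00, 2.93, 1.56, 1.54 and 1.86 CPM. Again the WT combination libraries lay below every other library. The response was -2.34 ± 0.29 in WT (adjusted p = 3.46e-05) and -0.02 ± 0.25 in B-depleted tumours (adjusted p = 0.983), a difference of 2.33 ± 0.38 (adjusted p = 0.0345).

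The Oxct2b reads cannot be assigned with certainty. The gene lies inside Bmp8b (chr4:123105165-123132099), a bone morphogenetic protein gene on the same strand, so strand does not tell them apart. Bmp8b held 34.6 ± 11.02 CPM in WT isotype and 9.28 ± 5.19 in WT combination libraries, and 35.0 ± 9.35 and 26.4 ± 4.89 CPM in the isotype and combination arms with B-cell depletion (SD). Its difference of responses was 1.49 ± 0.44 (adjusted p = 0.0908). The Oxct2b transcript is also 97.98% identical over 1735 bases to that of Oxct2a, whose arm means were 0.050 to 0.163 CPM.

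Gm49146 (chr14:43250590-43258804, plus strand) is annotated as a transcribed unprocessed pseudogene, and its last bases overlap the gene Gm8126 on the same strand. Under isotype and combination, Gm8126 had means of 0.583 and 0.0756 CPM in WT and 0.142 and 0.627 CPM in B-depleted tumours. How reads were shared between these 2 genes was not tested. Gm49146 had 19, 17, 2, 21 and 31 counts in WT isotype libraries and 3, 0, 1, 0 and 0 in WT combination libraries. The B-depleted isotype libraries had 7, 7, 2, 9, 7 and 7 counts and the B-depleted combination libraries 4, 9, 16, 10 and 14. In CPM the B-depleted combination libraries (0.420 to 1.19) lay above all WT combination libraries (0 to 0.169), while the isotype and combination arms overlapped within each background. The difference of responses was 5.26 ± 0.84 (adjusted p = 0.0345), and its size rests on these few counts in WT combination.

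**Figure D1:**
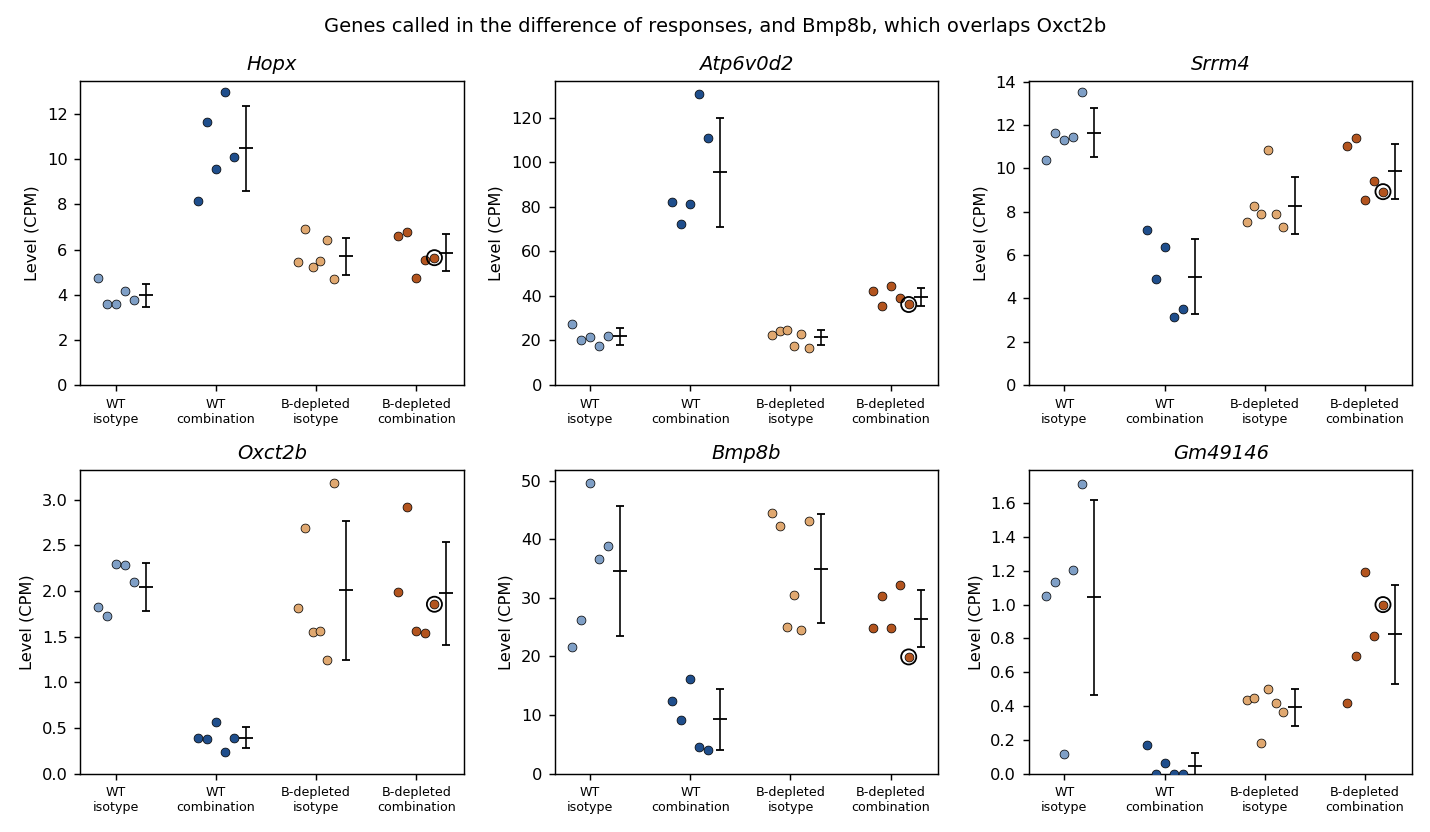
Level in CPM (y axis) of Hopx, Atp6v0d2, Srrm4, Oxct2b, Bmp8b and Gm49146 in each library, by group (x axis); bars are mean and SD, and the circled point is B-depleted combination replicate 5. The WT combination libraries stand apart from the other 3 groups in Hopx (8.15 to 12.99 CPM) and Oxct2b (0.237 to 0.566 CPM), and the circled library lies within its group in the 5 called genes.

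In all 5 called genes the 2 combination arms did not overlap, a pattern that 10.5% of all genes tested showed (6.03% with B-depleted lower, 4.51% higher). The isotype arms of the 5 overlapped between backgrounds, as they did for all but 0.462% of the genes. The isotype arms still enter the difference of responses. B-depleted minus WT under isotype was 0.50 ± 0.14 for Hopx, -0.51 ± 0.17 for Srrm4 and -1.37 ± 0.47 for Gm49146. It was -0.05 ± 0.15 for Atp6v0d2 and -0.04 ± 0.24 for Oxct2b (adjusted p = 0.9998 for each of the 5 in the same fit). Since the choice of these genes used the same libraries, the separation is a description of them.

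The calls depended strongly on single libraries. With 1 library left out the count ran from 0, without any 1 of 7 libraries, to 1540 without WT combination replicate 3. Without B-depleted combination replicate 5 it was 1382 of 19343 genes (7.14%), 564 lower (2.92%) and 818 higher (4.23%), and without WT combination replicate 1 it was 361. These shares, 2.92% lower and 4.23% higher, are the background for every count of list members called without that library below. All 5 called genes were among the calls of each of these 3 refits, and none of the 5 was called when WT isotype replicate 2, 4 or 5, WT combination replicate 5, B-depleted isotype replicate 2 or 5, or B-depleted combination replicate 4 was left out. The first principal component, over 2000 variable genes, held 50.7% of the variance, and on it the WT combination libraries lay at -20.6 or lower. B-depleted combination replicate 5 lay at -22.8 and the other 4 of its arm at 1.32 to 31.0.

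**Figure D2:**
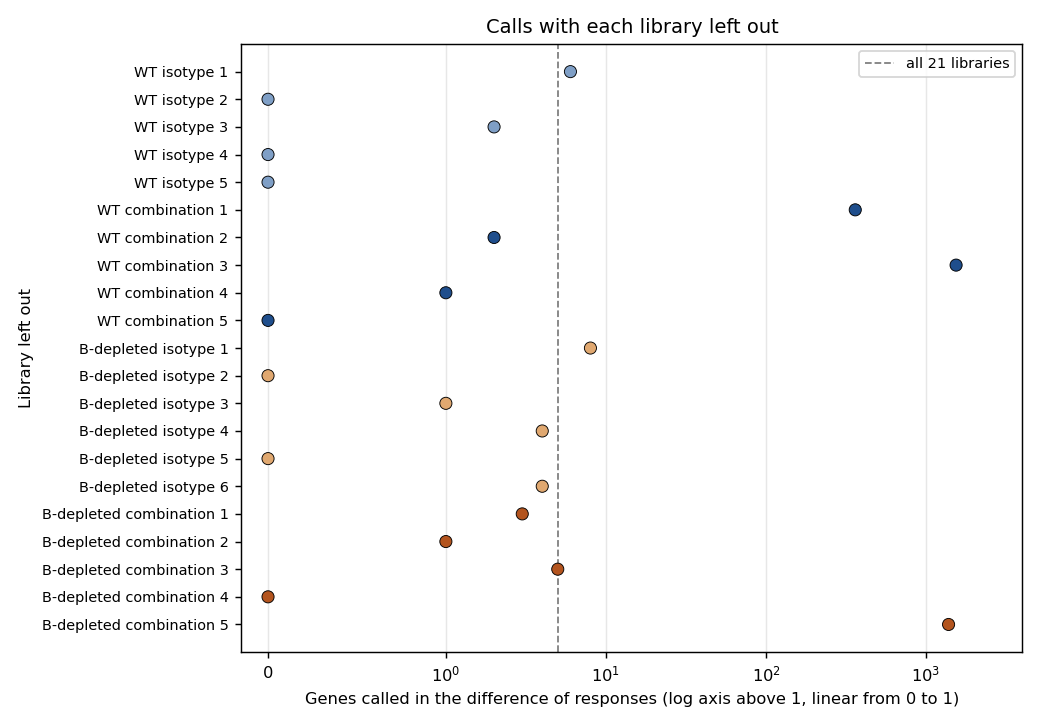
Number of genes called in the difference of responses (x axis, logarithmic above 1 and linear from 0 to 1) when each of the 21 libraries (y axis) was left out; the dashed line marks the 5 genes called with all libraries. The 3 points far to the right are WT combination replicate 1 (361 genes) and replicate 3 (1540 genes) and B-depleted combination replicate 5 (1382 genes).

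A difference of responses carries the error of 4 arms. Its median standard error over all genes was 0.255, against 0.184 for the WT response and 0.177 for the B-depleted response. The median absolute size was 0.326, compared with 0.417 for the WT response, 0.164 for the B-depleted response, 0.322 for B-depleted against WT under the combination and 0.0921 for the same under isotype. In the fit, 50% of genes passed for the WT response and 0.341% for the B-depleted response. The median difference of responses over all genes was 0.01, with 9322 genes below 0 and 9739 above.

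The 15 uncalled genes of smallest p all had an adjusted p of 0.0687, and all 15 were called without B-depleted combination replicate 5 (adjusted p from 0.00123 to 0.0311). Each of them was called in only 3 or 4 of the 21 refits that left out 1 library. Replicate 5 was singled out from these same libraries, so calls made without it, here and in the lists below, are a description. Of the 15 genes, 14 had a positive difference and 1, Nos2, a negative one. Nos2 encodes inducible nitric oxide synthase, which macrophages make under interferon-gamma. It held 53.3, 68.0, 38.5, 45.8 and 52.1 CPM in WT isotype libraries and 270, 343, 309, 316 and 316 CPM in WT combination libraries. In B-depleted isotype libraries it ran from 50.4 through 62.6 to 106 CPM, and in B-depleted combination libraries it held 108, 72.6, 95.4, 88.7 and 221 CPM, the last in replicate 5. Every B-depleted combination library lay below every WT combination library. The difference was -1.84 ± 0.36, and -2.23 ± 0.26 without replicate 5 (adjusted p = 0.00123). A further refit left out 3 libraries labelled B-depleted. They were combination replicate 5, whose B-cell markers were above the lowest WT library, and isotype replicates 3 and 5. These isotype replicates had a summed level of plasma cell and immunoglobulin constant genes above the WT isotype median. In that refit Nos2 was the 1 gene called, at -2.12 ± 0.22 (adjusted p = 0.000574), and none of the 5 was.

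The 14 genes with a positive difference included regulators of development and signalling. Fzd8, a Wnt receptor, fell in WT from 42.8 ± 5.01 to 17.1 ± 5.03 CPM, and its means in B-depleted tumours were 40.6 ± 7.80 and 38.3 ± 1.91 CPM (SD; difference of responses 1.24 ± 0.23). Tead2, a transcription factor of the Hippo pathway, fell in WT from 50.2 ± 4.43 to 20.3 ± 5.78 CPM and stood at 50.6 ± 4.04 and 42.2 ± 6.22 CPM in B-depleted tumours (1.04 ± 0.20). Hhex, a homeobox factor of liver development, had a difference of 1.19 ± 0.24, and Dusp9, a phosphatase that turns off MAP kinases, 1.31 ± 0.26. Each of these 4 fell in WT with an adjusted p of 6.91e-05 or lower.

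Ptbp1, the splicing repressor that holds back neuronal exons, fell in WT from 345 ± 21.5 to 234 ± 22.0 CPM and stood at 322 ± 20.8 and 313 ± 27.5 CPM in B-depleted tumours (0.52 ± 0.10). The others were the metalloreductase family member Steap1 (1.41 ± 0.26), the lysophosphatidic acid receptor Lpar2 (0.91 ± 0.18), the glutathione enzyme family member Ggt6 (1.93 ± 0.39), the small GTPase Rab34 (0.61 ± 0.12), the disulfide isomerase Txndc5 (0.55 ± 0.11), the ubiquitin ligase subunit Fbxw8 (0.51 ± 0.10), the RNA-binding protein Rbpms (0.49 ± 0.09), Blcap (0.65 ± 0.13) and Susd1 (0.97 ± 0.20). In all 15 genes, Nos2 included, the 2 combination arms did not overlap, against 10.5% of all genes; they were chosen by their p in the same libraries, so this is a description.

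**Figure D3:**
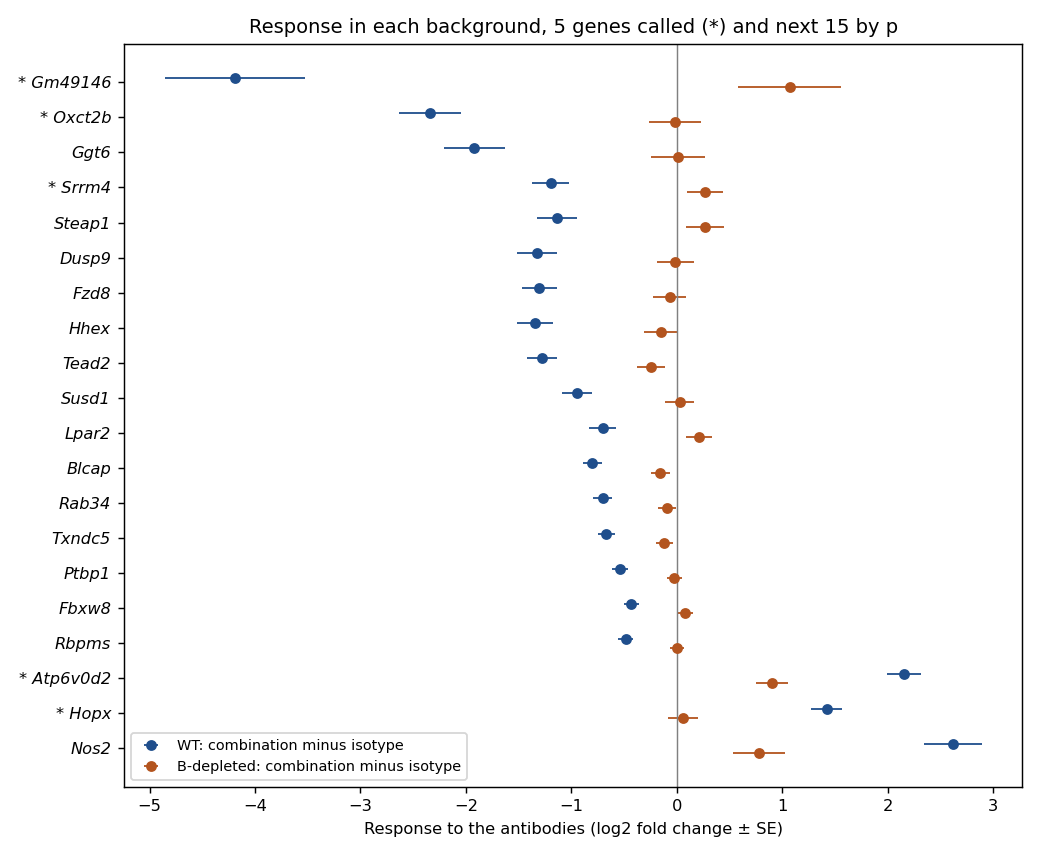
Response to the antibodies in WT (blue) and in B-depleted tumours (orange), as log2 fold change with SE (x axis), for the 5 called genes, marked with a star, and the 15 genes next by p (y axis). Hopx stands at 1.42 in WT and 0.06 in B-depleted tumours, and Nos2 at 2.62 and 0.78.

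Hopx belongs to a list of 20 transcription factors of effector lymphocytes, all of them tested. It was the 1 member called, and 15 of the 20 differences were negative (median -0.53; 9 lower and 1 higher at an unadjusted p under 0.05). Irf4 (-1.24), Ikzf2 (-1.24), Eomes (-1.08), Stat4 (-0.9997) and Tbx21 (-0.96) had the most negative values after Hopx, with adjusted p from 0.10 to 0.23. Prdm1, which drives plasma cells and effector T cells, stood at -0.52 ± 0.17 (adjusted p = 0.10). Values above 0 were Id3 (0.43), Nr4a1 (0.34), Tox (0.31), Nr4a2 (0.12) and Bhlhe40 (0.10). Without B-depleted combination replicate 5 the called members were Hopx, Stat4 (adjusted p = 0.048) and Zeb2 (adjusted p = 0.049).

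Atp6v0d2 was the 1 proton pump subunit called of 21 tested, of which 16 were negative (median -0.20; 7 lower and 1 higher at an unadjusted p under 0.05). Its ubiquitous counterpart Atp6v0d1 stood at -0.36 ± 0.16 (adjusted p = 0.171), with arm means of 42.1 and 66.1 CPM in WT and 40.3 and 49.1 CPM in B-depleted tumours. Atp6v1b2, a subunit of the part that splits ATP, was at -0.41 and Atp6ap2, an accessory subunit, at -0.71. Atp6v0a4, the subunit known from kidney, went the other way at 1.97 ± 0.46 (adjusted p = 0.0745). Without replicate 5 of the B-depleted combination arm, 4 subunits were called lower (Atp6v0d2, Atp6v1b2, Atp6ap2 and Atp6v0c) and Atp6v0a4 higher.

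Among 13 tested genes of osteoclast-type cell fusion, a list that Atp6v0d2 shares, 9 were negative (median -0.38, and -0.63 without B-depleted combination replicate 5). Clcn7, a lysosomal chloride exchanger, stood at -0.55 ± 0.19 (adjusted p = 0.116). The fusion genes Dcstamp (-1.66) and Ocstamp (1.17) lay on opposite sides of 0, and Acp5 and Mmp9, enzymes of osteoclasts, were near 0 at -0.01 and 0.08. In the list of lipid-associated macrophage genes 10 of 15 were negative (median -0.44; 7 lower at an unadjusted p under 0.05). Ctsd, a lysosomal protease, stood at -0.70 ± 0.19 (adjusted p = 0.0785), Mitf, a factor of lysosome genes, at -1.27 ± 0.37 (0.0908), and Trem2, the lipid receptor of these macrophages, at -1.12 (95% interval -2.01 to -0.22). Without replicate 5, 5 of the 15 were called, all lower, against 2.92% of all genes. The list's median was -0.29 without WT combination replicate 5. Gpnmb (0.03), Cd9 (0.04) and Cd63 (0.05) stayed near 0 with all libraries.

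Oxct2b was the 1 called of 11 ketone body genes tested (median 0.10; 5 negative). The list had no direction that held: with 1 library left out its median ran from -0.10 to 0.77. Oxct1, the enzyme of most tissues, stood at -0.06, while Ppara, the fasting regulator of liver, stood at 2.18 ± 0.54 (adjusted p = 0.0745). Of 17 splicing regulators tested with Srrm4, 13 were positive (median 0.14, and 0.07 without B-depleted combination replicate 4 or 0.09 without WT combination replicate 4; 1 lower and 5 higher at an unadjusted p under 0.05). Without replicate 5, Srrm4, Ptbp1, Rnps1 and Rbfox2 were called higher. Rest, the repressor of neuronal genes that holds Srrm4 down in other tissues, was at 0.02, and Srrm2 and Nova2, a general and a neuronal splicing factor, were at 0.04 and -0.07.

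T-cell genes had differences of the same sign as Hopx, and none of them was called. Of 24 tested, 23 were negative (median -0.84), and 17 were lower and 1 higher at an unadjusted p under 0.05, against 10.8% lower and 14.8% higher among all genes. Their median response was 1.93 in WT and 0.97 in B-depleted tumours. In whole tumour, fewer cells of a type and less RNA per cell cannot be told apart. Cd27, a costimulatory receptor, rose in WT from 2.52 to 11.4 CPM and stood at 3.60 and 5.63 CPM in B-depleted tumours (difference -1.52 ± 0.38, adjusted p = 0.0745). It was the 1 member called without replicate 5 (adjusted p = 0.0395). Cd2, an adhesion receptor of T cells, stood at -1.29 ± 0.42 (adjusted p = 0.102), and Tcf7, the factor of naive and stem-like T cells, was the 1 positive member at 0.62.

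The CD4 and CD8 coreceptors differed in the size of their values. Cd4 had means of 11.7 ± 6.26 and 54.8 ± 20.5 CPM in WT and 12.3 ± 8.48 and 17.5 ± 7.48 CPM in B-depleted tumours (SD). Its difference of responses was -1.71, with a 95% interval of -3.09 to -0.34 (adjusted p = 0.133). Cd8a had means of 26.2 ± 6.98 and 102 ± 18.2 CPM in WT and 25.2 ± 11.1 and 68.5 ± 5.20 CPM in B-depleted tumours, and it rose in both (adjusted p = 3.82e-05 and 0.0133). Its difference was -0.53, with an interval of -1.24 to 0.18 (adjusted p = 0.327). Whether the 2 coreceptors differ from each other was not tested. Cd3e, a chain of the T-cell receptor complex, stood at -0.78 (interval -1.55 to -0.00, adjusted p = 0.195).

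Of 20 cytotoxic effectors, 19 were negative (median -0.89; 7 lower and 0 higher at an unadjusted p under 0.05), and 0 were called with all libraries. Gzmb, the granzyme that starts target cell death, held 8.06, 14.3, 9.23, 10.3 and 16.1 CPM in WT isotype and 75.4, 46.1, 36.8, 46.5 and 55.1 CPM in WT combination libraries. B-depleted isotype libraries ran from 5.53 to 16.3 CPM, and B-depleted combination libraries held 28.1, 21.7, 30.8, 25.1 and 28.3 CPM. The combination raised it in both backgrounds (2.18 ± 0.24, adjusted p = 1.81e-05, and 1.35 ± 0.23, adjusted p = 0.0137), and the 2 combination arms did not overlap. The difference was -0.83 (interval -1.52 to -0.15, adjusted p = 0.14). Prf1, the pore protein that lets granzymes in, rose by 1.83 ± 0.20 in WT and 1.62 ± 0.19 in B-depleted tumours. Its difference of -0.22 had an interval of -0.79 to 0.36, which holds both 0 and a value near that of Gzmb. Ifng, the cytokine that T and natural killer cells release, stood at -0.82 (interval -1.73 to 0.09, adjusted p = 0.236). Ctsw and Klrc1, a protease and a receptor of killer cells, had the smallest p of the list, at -0.99 ± 0.36 (adjusted p = 0.119) and -0.76 ± 0.29 (0.135). Among 13 natural killer receptors 12 were negative (median -1.03, and -0.65 without B-depleted isotype replicate 5), led by Klri2 at -1.11 ± 0.38 and Klra7 at -1.81 ± 0.73.

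Receptors targeted by checkpoint therapy and their relatives gave 15 negative values of 16 (median -0.73; 11 lower and 1 higher at an unadjusted p under 0.05). Ctla4, itself a target of the antibodies, held 7.62, 11.2, 6.53, 7.56 and 9.32 CPM in WT isotype and 13.9, 24.7, 17.4, 20.5 and 18.3 CPM in WT combination libraries. B-depleted isotype libraries ran from 4.59 to 11.3 CPM, and B-depleted combination libraries held 6.62, 7.16, 4.09, 9.504 and 11.996 CPM, the last in replicate 5. All of these lay below the lowest WT combination library. The difference was -1.10 (interval -1.90 to -0.29, adjusted p = 0.117), and -1.32 ± 0.37 without replicate 5 (adjusted p = 0.0444). Pdcd1, the gene of PD-1, rose in both backgrounds and stood at -0.40 (interval -1.11 to 0.30, adjusted p = 0.451).

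The ligands of PD-1 are made by tumour and myeloid cells. Cd274, which encodes PD-L1, had means of 156.8 ± 38.1 and 372 ± 27.1 CPM in WT and 159 ± 43.9 and 225 ± 73.4 CPM in B-depleted tumours (SD). Its difference was -0.74 (interval -1.37 to -0.11, adjusted p = 0.145), and -0.97 without replicate 5 (adjusted p = 0.041). Pdcd1lg2, which encodes PD-L2, stood at -0.72 ± 0.17 (adjusted p = 0.0745) and Icos, a costimulatory receptor of helper T cells, at -1.49 ± 0.45 (0.0919). These 2, Ctla4 and Cd274 were the 4 members called without replicate 5, all lower. All 8 regulatory T-cell genes were negative (median -0.93). Foxp3, their defining factor, stood at -1.42 (interval -2.88 to 0.05) and Il2ra, the interleukin-2 receptor, at -1.28 ± 0.45 (adjusted p = 0.114).

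**Figure D4:**
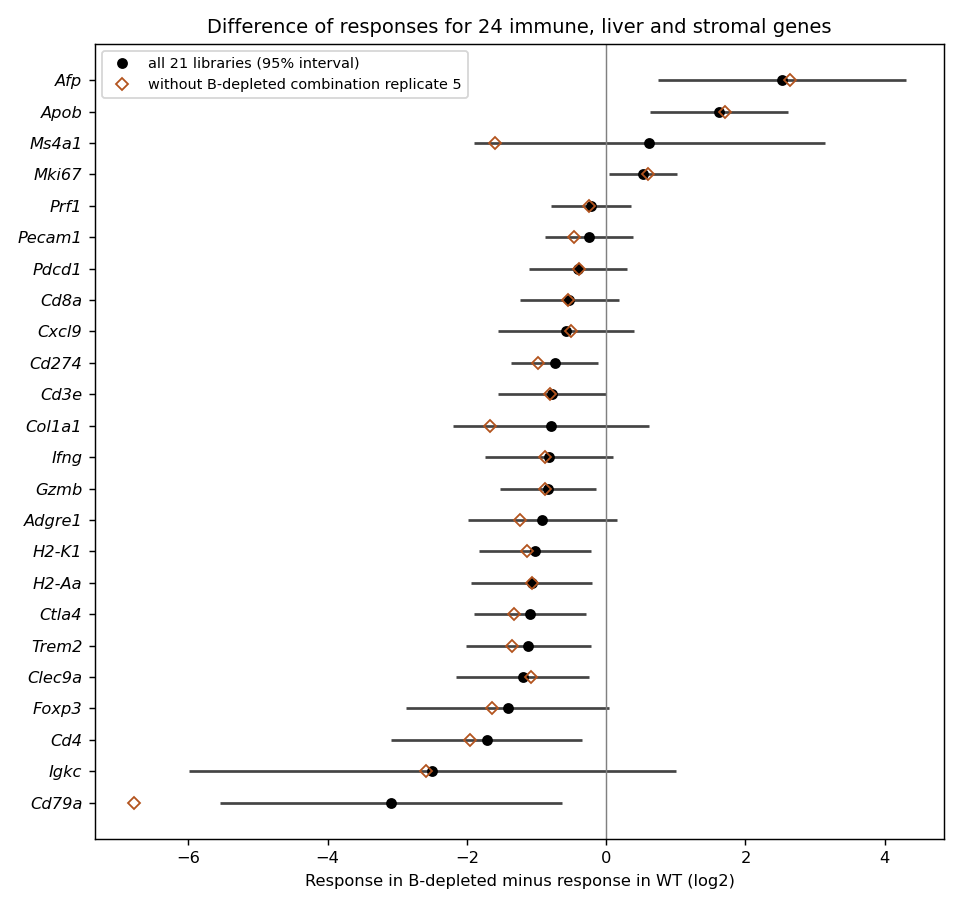
Difference of responses in log2 with its 95% interval (x axis, black) for 24 immune, liver and stromal genes (y axis), and the value without B-depleted combination replicate 5 (open diamonds). The interval of Apob runs from 0.63 to 2.61 and that of Ctla4 from -1.90 to -0.29, while those of Prf1 and Pdcd1 hold 0; Ms4a1 and Cd79a move most when the library is left out.

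Most genes of B cells, the cells that the depletion acts on, had few counts in these tumours, with Cd22 and Pax5 as exceptions. Of 13 in the list, 9 passed the filter on low counts, 7 of them negative (median -1.09). Cd79a, a chain of the B-cell receptor, had 11, 2, 4, 6 and 10 counts in WT isotype libraries and 15, 33, 14, 37 and 43 in WT combination libraries. In B-depleted isotype libraries it had 0 to 7 counts, and in B-depleted combination libraries 0, 0, 0, 0 and 6. The difference was -3.09 (interval -5.55 to -0.63, adjusted p = 0.133), and the gene was called without replicate 5 (adjusted p = 0.0337), a library that stood out by this gene among others, so that call is a description. Ms4a1, which encodes CD20, stood at 0.62 (interval -1.90 to 3.14) and at -1.59 without that library, so no direction can be given. Pax5, the factor of B-cell identity, had a positive value instead: its means were 30.1 and 14.6 CPM in WT and 26.9 and 24.2 CPM in B-depleted tumours (difference 0.89 ± 0.29, adjusted p = 0.103).

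Plasma cell and immunoglobulin constant genes varied widely within groups. Igkc, the constant part of the kappa light chain, held 261, 98.2, 4.23, 18.2 and 16.6 CPM in WT isotype and 27.9, 256, 66.9, 166 and 504 CPM in WT combination libraries. B-depleted isotype libraries ran from 0.834 to 77.5 CPM and B-depleted combination libraries from 0.298 to 15.4 CPM. Its difference of -2.50 had an interval of -5.996 to 1.00 (adjusted p = 0.345). Of 11 tested members 9 were negative (median -2.50, and -1.39 without B-depleted isotype replicate 3), with 3 lower at an unadjusted p under 0.05. Ighg2c had means of 13.3 and 90.3 CPM in WT and 8.74 and 0.503 CPM in B-depleted tumours (difference -6.88 ± 2.49, adjusted p = 0.12). The 8.74 CPM came from B-depleted isotype replicate 3, at 52.1 CPM against 0 to 0.178 CPM in the other 5 libraries, and without it the difference was 0.07 ± 1.02 (adjusted p = 0.9749). Iglc1 had means of 1.01 and 5.13 CPM in WT and 13.1 and 0.0143 CPM in B-depleted tumours (adjusted p = 0.0745). The 13.1 CPM came mostly from B-depleted isotype replicate 5, at 68.9 CPM against a median of 0.292 CPM in that arm, and without it the adjusted p was 0.138. Of 10 lymphoid aggregate genes the 7 tested were all negative (median -1.23, and -0.58 without WT combination replicate 5 or -0.61 without B-depleted isotype replicate 6). Il7r, the receptor for the survival cytokine interleukin-7, stood at -1.23 ± 0.35 (adjusted p = 0.0898) and was called without B-depleted combination replicate 5 (adjusted p = 0.0297). Lta, the lymphotoxin of aggregate formation, stood at -1.90 ± 0.63 (adjusted p = 0.104).

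Interferon-gamma response genes were negative in 25 of 27 cases (median -0.61), with 7 lower and 0 higher at an unadjusted p under 0.05, and Nos2 was the 1 called without replicate 5. Their median response was 1.03 in WT and 0.46 in B-depleted tumours. Irf8, a factor of myeloid cells, stood at -0.54 ± 0.15 (adjusted p = 0.0853). Cxcl9, which draws T cells, stood at -0.58 (interval -1.55 to 0.40, adjusted p = 0.436). Of 24 type I interferon genes 21 were negative (median -0.63; 13 lower and 0 higher at an unadjusted p under 0.05). Rsad2 and Ifit1, antiviral effectors, stood at -1.13 ± 0.29 (adjusted p = 0.076) and -1.12 ± 0.30 (0.0785); without replicate 5 the called members were these 2 and Oas1a.

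Antigen presentation genes had negative values as well. All 10 class II genes were negative (median -0.90; 6 lower at an unadjusted p under 0.05), and 15 of 16 class I genes were negative (median -0.31; 5 lower). H2-Aa, a class II chain, had means of 565 ± 220 and 1553 ± 303 CPM in WT and 564 ± 259 and 743 ± 92.5 CPM in B-depleted tumours (SD). Its difference was -1.07 (interval -1.94 to -0.20, adjusted p = 0.136). Ctss, the protease that trims the class II chaperone, stood at -1.21 ± 0.36 (adjusted p = 0.0908) and was the 1 member called without replicate 5 (0.0395). H2-K1, H2-D1 and B2m of class I stood at -1.02 (adjusted p = 0.13), -0.49 (0.0994) and -0.43 (0.104); H2-K1 and H2-D1 are close relatives whose reads may be shared.

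Myeloid and stromal lists differed in the size of their medians. Of 15 macrophage genes 12 were negative (median -0.48, and -0.76 without B-depleted combination replicate 5). Of the 15, 2 were lower at an unadjusted p under 0.05 (13.3%, near the 10.8% of all genes). They were Lyz2, a lysozyme, at -1.05 ± 0.47 (adjusted p = 0.173) and Cd68 at -0.68 ± 0.32 (adjusted p = 0.183). Adgre1, the F4/80 antigen, stood at -0.92 (interval -1.99 to 0.15). Of 12 dendritic cell genes 11 were negative (median -1.29; 7 lower and 1 higher). Cd209a stood at -2.81 ± 0.89 (adjusted p = 0.0985), Ccl22 at -1.39 ± 0.47 (0.11), and Clec9a, the marker of cross-presenting dendritic cells, at -1.20 (interval -2.15 to -0.24, adjusted p = 0.133). Neutrophil genes had no direction that held: 10 of 12 were positive (median 0.43) with all libraries, and the median was -1.64 without B-depleted combination replicate 5. That library held 1830 CPM over the list, against a median of 72.3 CPM in its arm.

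Of 20 fibroblast and matrix genes 18 were negative (median -0.62, and -1.20 without replicate 5). Col1a1, the main collagen, held 10790 CPM in that library, and its difference was -0.79 (interval -2.20 to 0.62) with it and -1.66 ± 0.52 without it (adjusted p = 0.0536). Col6a3 stood at -0.98 ± 0.38 (adjusted p = 0.133). Fn1, fibronectin, which liver cells also make, was positive at 0.58 ± 0.17 (adjusted p = 0.0908). Endothelial genes were negative in 13 of 14 cases (median -0.44, and -0.25 without B-depleted isotype replicate 5). Of the 14, 2 were lower at an unadjusted p under 0.05 (14.3%, near the 10.8% of all genes). Flt1 stood at -0.51 ± 0.21, Eng at -0.93 ± 0.40 and Pecam1 at -0.25 (interval -0.88 to 0.38).

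Liver and proliferation genes had values of the opposite sign. All 9 hepatocyte genes tested were positive (median 2.85), and 8 were higher at an unadjusted p under 0.05, against 14.8% of all genes. The median fell to 1.67 without B-depleted isotype replicate 5, to 1.71 without B-depleted isotype replicate 4 and to 1.71 without B-depleted combination replicate 4. Their median response was -2.13 in WT and -0.37 in B-depleted tumours. Apob held 484, 493.5, 593, 610 and 553 CPM in WT isotype and 165, 146, 217, 57.6 and 29.5 CPM in WT combination libraries. B-depleted isotype libraries ran from 362 to 523 CPM and B-depleted combination libraries held 374, 397, 223, 412 and 233 CPM, all above the highest WT combination library. The difference was 1.62 (interval 0.63 to 2.61, adjusted p = 0.0908), and 1.71 ± 0.49 without replicate 5 (adjusted p = 0.0454). Apoa1, the protein of high-density lipoprotein, and Ttr, a thyroid hormone carrier, stood at 3.86 ± 1.06 (adjusted p = 0.082) and 3.45 ± 0.96 (0.0856). Without B-depleted combination replicate 5, 5 of the 9 were called higher, against 4.23% of all genes, among them Apoa1, Ttr, Apob and the liver factor Hnf4a. Alb, albumin, stood at 1.43 (adjusted p = 0.23).

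Of 6 hepatoma and oncofetal genes tested 5 were positive (median 0.86). Afp, the fetal albumin relative, had means of 701 ± 560 and 97.9 ± 92.6 CPM in WT and 591 ± 283 and 475 ± 131 CPM in B-depleted tumours (SD), a difference of 2.52 (interval 0.74 to 4.30, adjusted p = 0.108). Igf2bp3, an RNA-binding protein of fetal tissue, stood at 0.86 ± 0.29 (adjusted p = 0.111). All 23 cell cycle genes were positive (median 0.53; 16 higher at an unadjusted p under 0.05). Aurka and Plk1, kinases of mitosis, stood at 0.96 ± 0.24 (adjusted p = 0.0745) and 0.77 ± 0.22 (0.0898). Mki67, the proliferation marker, had means of 430 ± 32.1 and 295 ± 98.5 CPM in WT and 453 ± 56.3 and 450 ± 70.9 CPM in B-depleted tumours (interval of the difference 0.04 to 1.01, adjusted p = 0.168). Without replicate 5, Aurka, Plk1, Ccnb1 and Mcm2 were called higher. Hypoxia and glycolysis genes were near 0 (median 0.10, and -0.01 to 0.21 with 1 library left out; 0 of 16 at an unadjusted p under 0.05), with Hk2 at 0.56 ± 0.29 and Gapdh at 0.28 ± 0.17.

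**Figure D5:**
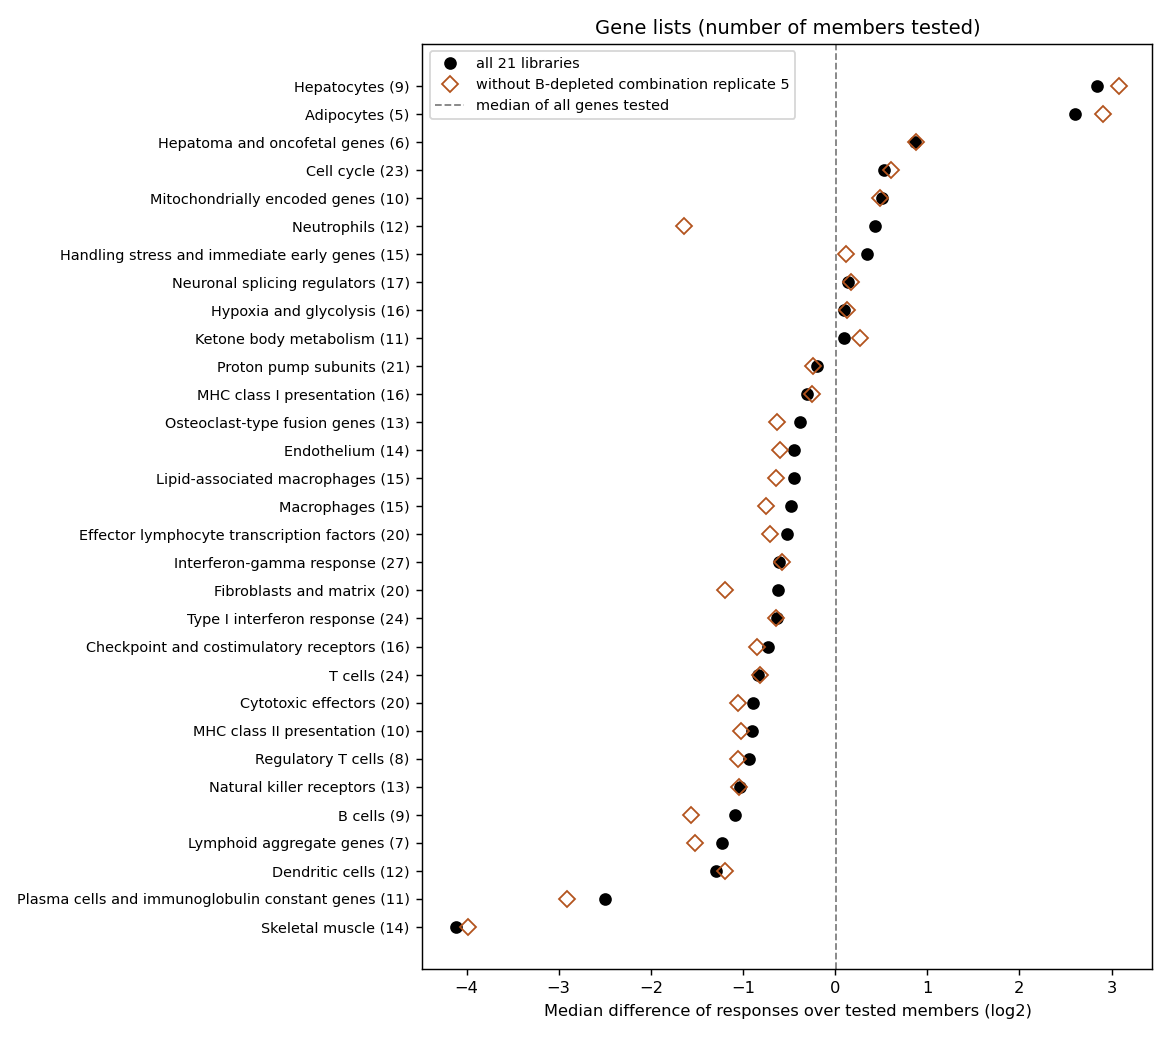
Median difference of responses in log2 (x axis) over the tested members of 31 gene lists (y axis, number tested in brackets), with all 21 libraries (black) and without B-depleted combination replicate 5 (open diamonds); the dashed line is the median of all genes. Lymphocyte, interferon and antigen presentation lists lie below 0, hepatocyte (2.85) and cell cycle (0.53) lists above, and neutrophil genes change side.

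Transcripts known from muscle, fat, mitochondria and handling stress also differed between libraries. All 14 skeletal muscle genes had a negative difference (median -4.12; 12 lower at an unadjusted p under 0.05). Their summed level was 43.3 to 507 CPM in WT isotype, 154 to 1231 in WT combination, 36.4 to 1034 in B-depleted isotype and 17.0 to 256 in B-depleted combination libraries. Pvalb, a calcium buffer of fast muscle, had means of 0.235 and 4.07 CPM in WT and 2.10 and 0.105 CPM in B-depleted tumours (adjusted p = 0.0745), and Mb, myoglobin, stood at -3.70 ± 1.14 (0.0943). All 5 adipocyte genes tested were positive (median 2.61), among them Cidec (3.83 ± 1.68) and Cfd (4.81 ± 2.28), and 1 library, B-depleted combination replicate 4, held 705 CPM over this list against 65.5 CPM or less in all the others. Without it the median was -1.23, and without WT isotype replicate 1 it was 1.15, so the list had no direction that held. Mitochondrially encoded genes, which fall or rise with tissue state, had 9 of 10 positive (median 0.51), with mt-Co3 at 1.30 ± 0.39 and mt-Cytb at 0.86 ± 0.27. Arm means were 1.04 to 2.36 CPM for mt-Co3, so its value rests on few counts, and 1172 to 2283 CPM for mt-Cytb. Stress and immediate early genes were mixed, 6 negative and 9 positive (median 0.35, and -0.22 without WT isotype replicate 1), with Egr2 at -1.11 ± 0.28 (adjusted p = 0.0745) and Egr3 at -0.98 ± 0.31. The part of these tissues and states in the other differences was not tested.

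The summed level of 4 Y-linked genes (Ddx3y, Eif2s3y, Kdm5d and Uty) also differed between the groups. It was 47.6 to 79.2 CPM in WT isotype, 135 to 250 in WT combination, 46.3 to 119 in B-depleted isotype and 85.9 to 169 in B-depleted combination libraries, the highest of the last arm again in replicate 5. With the log2 of this sum as a covariate, 0 genes were called by edgeR and 1562 had an unadjusted p under 0.05. The 5 differences kept their sign, at -1.23 ± 0.23 for Hopx, -1.13 ± 0.25 for Atp6v0d2, 1.26 ± 0.27 for Srrm4, 1.99 ± 0.43 for Oxct2b and 5.43 ± 0.94 for Gm49146, with adjusted p of 0.176 to 0.227. The T-cell median was then -0.07, the cytotoxic median -0.26, the interferon-gamma median -0.34, the hepatocyte median 1.59 and the cell cycle median 0.11. The medians of 7 lists changed sign: macrophage (0.44), fibroblast (0.56), endothelial (0.52), B-cell (0.32), plasma cell (0.32), osteoclast-type fusion (0.18) and hypoxia genes (-0.16). Which cells carried these transcripts was not tested.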

How the data were processed

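The deposited table gives raw read counts per gene: its values are whole numbers, and column sums differ between libraries. The submitters' processing notes name cutadapt 2.4, STAR 2.7.2a and the build GRCm38, without saying how each was used; for the counting program, its strand setting and the annotation release nothing is stated in the sources used here. Libraries were made with a stranded mRNA kit, per the labels' protocols. Symbols and loci came from GENCODE M21 for 55141 of 55487 identifiers; 346 had none and made up 0.037% of the counts. Groups came from the sample titles.

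Counts were fitted in R 4.3.3 with edgeR 4.0.16 (filterByExpr on the 4 groups, TMM, robust quasi-likelihood; common biological coefficient of variation 0.246), and the script was tested on simulated data. Intervals are 95% intervals around the fitted log2 fold change, built from the standard error derived from the F statistic. DESeq2 1.42.0 and limma 3.58.1 (voom) were alternatives, with other scalings, filters, thinning, blocks, a covariate and each library left out.

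The text names every called gene, the 15 uncalled genes of smallest p with a mean of at least 1 CPM (predicted genes, clones, pseudogenes and receptor segments left out), the 2 of smallest p in each of 31 lists, 25 core genes, and partners of called genes; some of these are not reported here. Other list members are named where a called or partner list is described. The comparison, genes and lists were chosen with earlier results of these data known, so no list carries a test; a list's counts are read against the shares of all genes given in the text. Depth limits genes under 1 CPM, which hold about 10 to 19 counts or fewer in a library.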

Additional observations from a re-analysis of the deposited data

Results flagged for a closer look

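With all 21 libraries the response differed between backgrounds, by the test of the difference itself, in Hopx (-1.36), Atp6v0d2 (-1.25), Srrm4 (1.46), Oxct2b (2.33) and Gm49146 (5.26), on the log2 scale. These calls depended on single libraries. Of 21 refits that each left out 1 library, Hopx was called in 14, Gm49146 in 10, and the other genes in 7 each.

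Of 180 gene and group combinations checked for 1 library far from the rest of its group, 8 stood out; chance gives about 1 in 20. B-depleted combination replicate 5 accounted for 5 of them. It held 220.9 CPM of Nos2 (next library 107.8), 265.8 CPM of Ptbp1 (316.6), 0.428 CPM of Cd79a (0 in the others), 1.57 CPM of Ms4a1 (0.308) and 10790 CPM of Col1a1 (3774). B-depleted isotype replicate 4 was high in Srrm4, at 10.9 CPM against 8.27 for the next. B-depleted isotype replicate 3 was high in Igkc, at 77.5 CPM against 14.5. WT isotype replicate 3 was low in Col1a1, at 812.1 CPM against 1511.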

How the results depend on the processing

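The number of genes called moved with most choices. DESeq2 called 1181 (399 lower, 782 higher; 4 of the 5), and a threshold of 0.10 gave 1033. Fits with the Y-linked covariate called 0. Without 3 B-depleted libraries above set levels of B-cell markers or of the plasma cell and immunoglobulin list, 1 gene was called. Without the 2 WT isotype libraries of low hepatocyte level 2007 were (774 lower, 1233 higher). Both exclusions were chosen after seeing the data, as was the threshold of 0.10. So was the choice to give results throughout without B-depleted combination replicate 5. Leaving out 1 library gave 0 to 1540. Voom gave 6, RLE factors 4, thinning 7, and 5 remained with no scaling, either filter or non-robust fitting. A replicate block by title number called 0 (5431 at an unadjusted p under 0.05, lowest adjusted p 0.0511), and by the number in the description code 5, 4 of them the same genes. The labels do not say whether equal numbers mark a pair. Deviations of libraries with the same title number had a median correlation of 0.03 over 30 pairs (-0.36 to 0.55, 9 above 0.1). Of 20 libraries 3 correlated best with their own number. Weak correlation cannot show that equal numbers share no batch, so pairing was not settled.

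The 5 called genes kept their sign in every setting run but lost the call in 80 of 170 combinations of gene and setting. Reversed values were Ms4a1 by voom (-1.22), by thinning (-0.14), without B-depleted combination replicate 5 (-1.59; without any other single library it stayed positive, up to 1.51), without the 3 B-depleted (-1.999) and without the 2 WT isotype libraries (-0.15). With the covariate they were Prf1 (0.0875), Cd8a (0.0777), Pdcd1 (0.0412), Foxp3 (0.19), Cxcl9 (0.0599), H2-K1 (0.0063), Igkc (2.54), Adgre1 (0.52), Col1a1 (0.63) and Pecam1 (0.515), and without the 3 libraries Cxcl9 (0.0410) and Igkc (1.01). The cause was not tested. List medians were set against the spread between libraries in only some settings: no scaling, the filter of 1 CPM in 5 libraries, and 1 library left out. Of these 713 medians 16 moved by more than that spread. The covariate, DESeq2, voom, RLE factors, thinning, blocks and the other refits were not in this count. With the covariate several list medians changed sign, as given above.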
